A study of Mus musculus with 20 samples.

Results

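The interferon-stimulated genes described here are 34 mouse genes given as a list, from the transcription factors of the interferon pathway to its antiviral effectors. They were taken by gene symbol from a table of 23284 genes measured by RNA-seq in 20 grafts, and all 34 had a row. Of these, 33 passed a filter on low values, which kept genes with a deposited log2 value of at least 5 in at least 4 libraries. Oas3 did not pass and is given by its values alone.

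Interferons are secreted proteins that bind receptors on the cell surface and activate Jak kinases, which phosphorylate Stat transcription factors. Type I and type III interferons act mainly through a complex containing Stat2 and Irf9 that binds the interferon-stimulated response element (ISRE), and interferon gamma acts through Stat dimers that bind the gamma-activated site (GAS). The genes switched on in this way sense viral nucleic acid, block viral replication or tune the signal, and epithelia express many of them at a low basal level without infection.

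Each graft was a tissue recombinant, in which mouse epithelial cells were combined with embryonic urogenital sinus mesenchyme of Sprague Dawley rats, the tissue that directs prostate development, and grown in a host that the labels do not describe further. Per the labels, the groups were SVE cells carrying both the construct mNKX3.1 and the hairpin UTY_sh (written mNKX3.1+UTY_sh), SVE cells with mNKX3.1 alone, unmodified prostate epithelial cells (PE), SVE cells with UTY_sh alone, and unmodified seminal vesicle epithelial cells (SVE), with 4 libraries in each. The mouse background was given as hybrid 129/SvImJ and C57Bl/6J on every sample, whereas the growth protocol named C57Bl/6J donors, aged 2 months. Mice received doxycycline, which switches on the inducible vector, in their drinking water for 3 months, and grafts were collected 3 months after implantation. UTY is the Y-linked relative of a histone demethylase. The treatment protocol mentioned a wild type and a point mutant form of the construct, which is therefore called only by its label. Nothing in the labels ties each library to an animal of its own, so a p-value here covers the spread among the libraries, and that spread may be technical. Replicate numbers only name the libraries.

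Depth, estimated from the spacing of the values, lay between 14930000 and 29810000 reads, and the shallowest libraries were PE replicate 3 at 14930000 and mNKX3.1 replicate 3 at 15470000. The tissue markers separated the groups: 5 of 5 prostate secretory markers were higher and 7 of 7 seminal vesicle secretory markers lower in PE and in mNKX3.1 than in SVE. Uty lay between 9.09 and 9.29 in the libraries labelled mNKX3.1+UTY_sh, between 10.07 and 10.31 in mNKX3.1, between 10.13 and 10.45 in PE, between 8.98 and 9.52 in UTY_sh and between 9.04 and 9.55 in SVE. Both hairpin groups overlapped SVE, whereas mNKX3.1+UTY_sh lay below mNKX3.1 with no overlap, and the hairpin groups are named only as labelled. In bulk tissue, fewer cells of a type and less RNA per cell cannot be told apart, and reads of rat and mouse RNA cannot be told apart in these values.

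To show what response elements these genes carry, windows from 250 bases before to 50 bases after the gene start were read from RefSeq on GRCm38.p6, a later build than the mm9 the submitters named. A window was found for 26 members. The ISRE core, searched on both strands as GAAA, any 2 bases and GAAA again (TTTC on both sides when read on the other strand), stood in the windows of 15 of these 26 (57.7%), against 3.99% of 27025 genes. The GAS motif TTCNNNGAA, which reads the same on both strands, stood in 9 of 26 (34.6%), against 9.55% of genes. A match is a description of the letters and not of a bound site. Only members with an ISRE core match are printed below, which leaves out the wide-ranging Ifi44 (no match) and Rtp4 (no window). The stretches belong to 6 members, some of the widest-ranging ones (Ifit1, Rsad2, Oas1a, Igtp) and 2 that were lower in PE or in mNKX3.1 (Isg15, Gbp2). Each runs 5′ to 3′ on the gene's strand and ends before the gene start, with the ISRE core in capitals. In Oas1a and Isg15, overlapping matches form 1 longer run of capitals.
Ifit1: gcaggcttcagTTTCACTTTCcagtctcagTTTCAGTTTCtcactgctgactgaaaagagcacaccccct
Rsad2: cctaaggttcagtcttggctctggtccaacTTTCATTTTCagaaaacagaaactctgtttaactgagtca
Oas1a: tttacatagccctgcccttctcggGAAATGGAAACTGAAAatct
Isg15: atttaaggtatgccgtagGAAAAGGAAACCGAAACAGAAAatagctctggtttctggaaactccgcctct
Gbp2: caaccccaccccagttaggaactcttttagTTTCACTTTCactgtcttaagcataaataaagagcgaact
Igtp: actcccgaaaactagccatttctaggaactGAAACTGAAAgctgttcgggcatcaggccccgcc
They lie at chr19:34640774-34640843 (Ifit1, plus strand), chr12:26456533-26456602 (Rsad2, minus strand), chr5:120907526-120907569 (Oas1a, minus strand), chr4:156200845-156200914 (Isg15, minus strand), chr3:142620574-142620643 (Gbp2, plus strand) and chr11:58199492-58199555 (Igtp, plus strand). The Ifit1 window held 2 separate matches, and the Isg15 window held 3 overlapping ones. The windows of Igtp and Oas1a also held a GAS match. The windows of Irf7, Irf9, Ifi44, Oasl1, Oasl2, Trim25 and Xaf1 held neither motif, which says only that these letters were not in them.

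**Figure D1:**
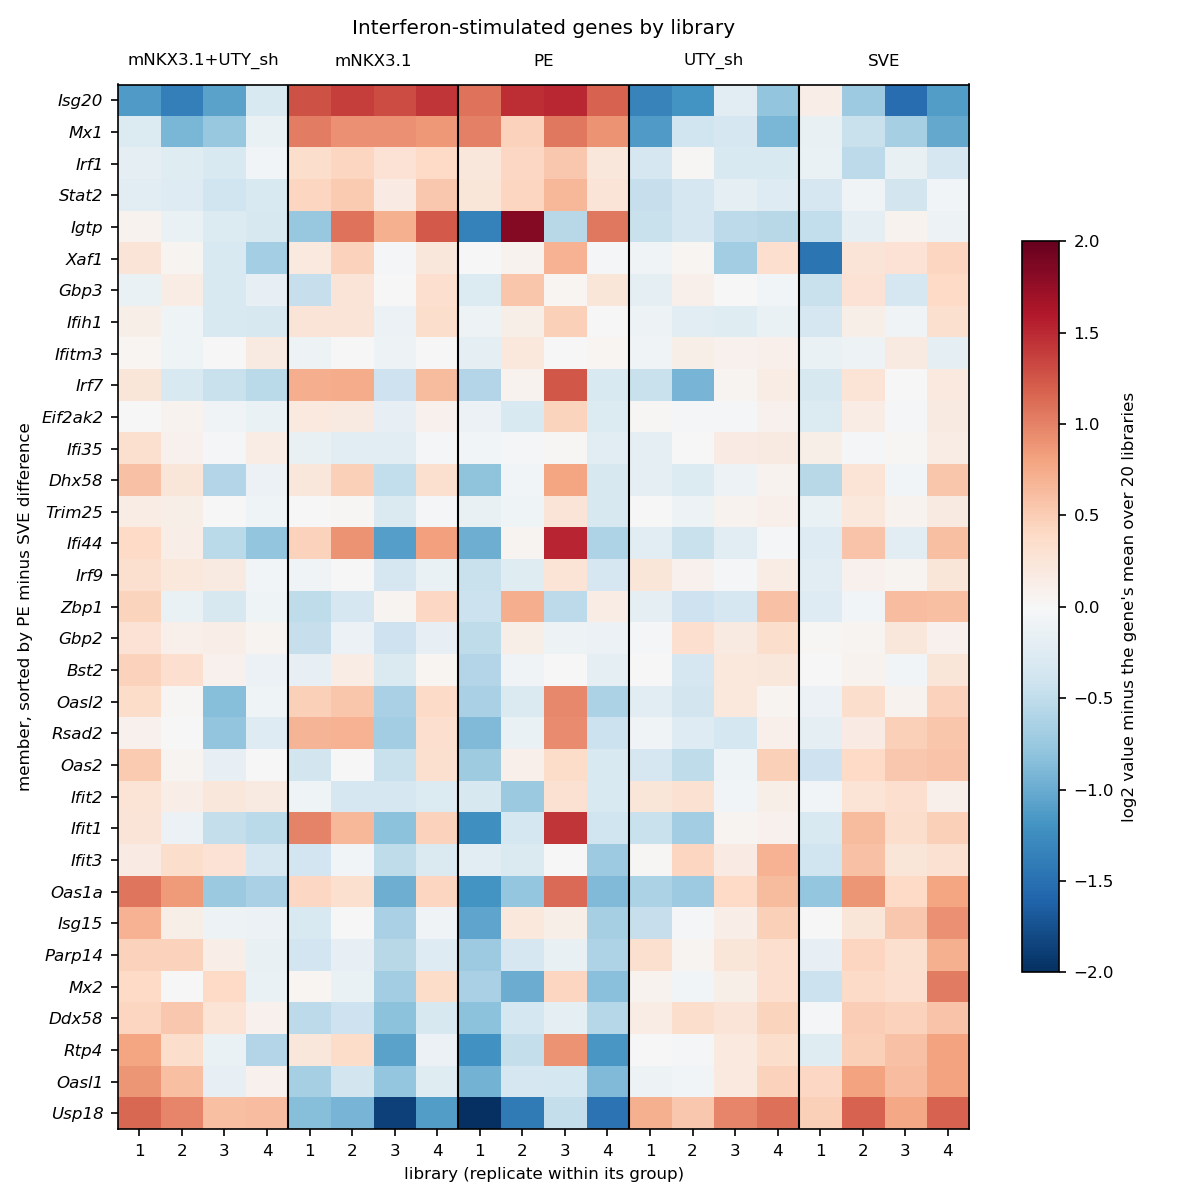
Log2 value of each of the 33 members that passed the filter, minus that gene's mean over the 20 libraries (colour), by library (columns, grouped) and sorted by the PE minus SVE difference (rows). Isg20 and Mx1 were high in every mNKX3.1 and PE library, Usp18 was low in all of them, and PE replicate 3 was the highest PE library for 26 of the 33.

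PE and SVE were compared to ask how prostate and seminal vesicle epithelium differ under the same mesenchyme. The interferon-stimulated genes split: 4 were higher in PE, 8 were lower and 21 did not pass the test (limma, adjusted p below 0.05). The 12 called are 36.4% of the members tested, and 62.1% of all 13456 genes tested were called in the same comparison, 31.8% higher and 30.4% lower. The members' median difference was -0.25 on the log2 scale, against 0.02 over all genes. The libraries of PE and SVE did not overlap for 7 members, whereas they did not overlap for 48.9% of all genes. The counts by family that follow stand beside the same 62.1%, 31.8% and 30.4%.

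Among the transcription factors, 2 of 4 rose in PE and 0 fell. Stat2, a subunit of the complex that binds the ISRE, had 10.35, 10.54, 10.77 and 10.37 in PE, against 9.78, 10.05, 9.74 and 10.06 in SVE. Every PE library lay above every SVE library, and the difference was 0.60 (SE 0.10, limma adjusted p = 5.93e-05). Irf1, a factor induced by interferon gamma that binds similar elements, had 9.08, 9.27, 9.39 and 9.09 in PE and 8.72, 8.33, 8.71 and 8.53 in SVE. It too separated the groups, with a difference of 0.64 (SE 0.10, limma adjusted p = 1.67e-05). Irf9, the DNA-binding subunit of the same complex as Stat2, averaged 9.39 ± 0.32 in PE and 9.62 ± 0.20 in SVE (SD, n = 4 each) and did not pass. Irf7, the factor that amplifies type I interferon production, averaged 7.51 ± 0.80 in PE and 7.43 ± 0.26 in SVE and did not pass.

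Of the 3 members of the ISG15 pathway, 2 were lower in PE and 0 higher, where 62.1% of all genes were called. Usp18, the protease that removes ISG15 from proteins and damps the type I interferon receptor, had 4.85, 5.53, 6.46 and 5.46 in PE, against 7.42, 8.12, 7.71 and 8.12 in SVE. The lowest SVE library stood above the highest PE library, and the difference of -2.27 (SE 0.28, limma adjusted p = 1.5e-06) had the smallest p of any member here. Isg15, which encodes the ubiquitin-like modifier itself, had 4.45, 5.71, 5.62 and 4.84 in PE and 5.50, 5.75, 6.05 and 6.42 in SVE. These ranges overlapped, and Isg15 fell by 0.78 (limma adjusted p = 0.0258). Isg15 lost the call under 5 of 28 alternatives. Trim25, a ubiquitin ligase that acts on RIG-I, averaged 10.39 ± 0.24 in PE and 10.55 ± 0.15 in SVE and did not pass.

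Of the 7 other antiviral effectors, 2 rose, 1 fell and 4 did not pass. Isg20, an exonuclease that degrades viral RNA, had 8.67, 9.05, 9.08 and 8.76 in PE, against 7.72, 6.85, 6.05 and 6.47 in SVE. Its difference of 2.11 (SE 0.29, limma adjusted p = 5.47e-06) was the largest rise among the members. Mx1, a dynamin-like GTPase that blocks influenza virus and carries a deletion in C57BL/6J mice, had 7.71, 7.17, 7.77 and 7.60 in PE and 6.56, 6.27, 6.05 and 5.68 in SVE. All PE libraries were above all SVE libraries, by 1.42 on average (SE 0.21, limma adjusted p = 1.27e-05). Mx2, its neighbour and relative, fell instead, at 4.80, 4.45, 5.87 and 4.61 in PE against 5.01, 5.83, 5.79 and 6.49 in SVE. PE replicate 3 stood inside the SVE range for Mx2, and the difference was -0.85 (SE 0.31, limma adjusted p = 0.0241). Eif2ak2 (the kinase PKR), Rsad2 (viperin), Bst2 (tetherin) and Ifitm3, which acts on viral entry, had differences between -0.39 and 0.08 and did not pass.

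Within the SVE-type groups, Isg20 and Mx1 were highest where Pbsn, the prostate secretory gene of probasin, was high. In SVE replicate 1, with Pbsn at 15.71, Isg20 was 7.72 and Mx1 was 6.56, the highest of the 4 SVE libraries for both. In UTY_sh replicate 3, with Pbsn at 14.81, Isg20 was 7.36 and Mx1 was 6.37, and in mNKX3.1+UTY_sh replicate 4, with Pbsn at 15.06, they were 7.27 and 6.57, again the highest of their groups. Without these 3 libraries, Isg20, Mx1, Stat2 and Irf1 were still the 4 members higher in PE than in SVE, and 10 were lower. Of all genes, 8273 were called in that fit, against 8362 with all libraries. The part that Pbsn-rich tissue has in these values was not tested.

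The 4 sensors of viral nucleic acid gave 1 fall. Ddx58, which encodes the RNA sensor RIG-I, had 7.60, 8.07, 8.25 and 7.85 in PE and averaged 8.79 ± 0.28 in SVE (SD, n = 4), where the lowest library was at 8.38. The groups did not overlap, and Ddx58 fell by 0.85 (SE 0.15, limma adjusted p = 9.07e-05). Ifih1, the related sensor MDA5, differed by 0.11, Dhx58, the regulator LGP2, by -0.15 and Zbp1, a sensor of Z-form nucleic acid, by -0.25, and none of these 3 passed.

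In the 2'-5' oligoadenylate synthetase family, whose enzymes switch on the RNA-cutting RNase L, 1 of 4 tested members fell. Oasl1, a relative that lacks this enzyme activity and represses Irf7 translation in mouse, had 5.18, 5.80, 5.78 and 5.24 in PE, against 6.55, 6.94, 6.74 and 6.93 in SVE. No PE library reached the lowest SVE library, and the difference was -1.29 (SE 0.21, limma adjusted p = 4.14e-05). Oas1a, Oas2 and Oasl2 had differences of -0.76, -0.41 and -0.34 and did not pass. Oas3 had 2.21, 4.17, 3.85 and 3.89 in PE and 3.14, 4.42, 3.46 and 3.64 in SVE, close to the floor of the scale, which is a median of 2.27 over the genes that average under 2.5.

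Of the Ifit family, which binds viral RNA, Ifit2 fell by 0.42 (limma adjusted p = 0.0239) and Ifit3 by 0.50 (limma adjusted p = 0.0446), with overlapping groups for both. Ifit3 lost the call under 13 of 28 alternatives. Ifit1 averaged 5.99 ± 1.12 in PE and 6.42 ± 0.41 in SVE and did not pass. Parp14, a mono-ADP-ribosyltransferase, had 9.14, 9.53, 9.72 and 9.26 in PE and 9.71, 10.30, 10.19 and 10.58 in SVE. PE replicate 3 lay just above SVE replicate 1, and the difference was -0.79 (SE 0.17, limma adjusted p = 0.00053). Ifi35, Ifi44, Rtp4 and Xaf1 differed by -0.14, -0.18, -0.90 and 0.30 and did not pass, nor did the GTPases Gbp2, Gbp3 and Igtp at -0.25, 0.16 and 0.42. Several of these genes have close copies in mouse (Oas1a among the Oas1 genes, Ifit3 with Ifit3b), and the sources used here do not give how reads were split between copies.

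The count of 12 depended on PE replicate 3, the library with the highest values for most members. Without it 19 of 33 members were called, again 4 higher but 15 lower. Of all genes, 8350 were called in that fit, against 8362 with all libraries. The members called then and not before were Irf9, Ifit1, Oas1a, Oasl2, Rsad2, Rtp4 and Trim25. Usp18 had a difference of -2.56 without that library, and Isg20 2.05.

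**Figure D2:**
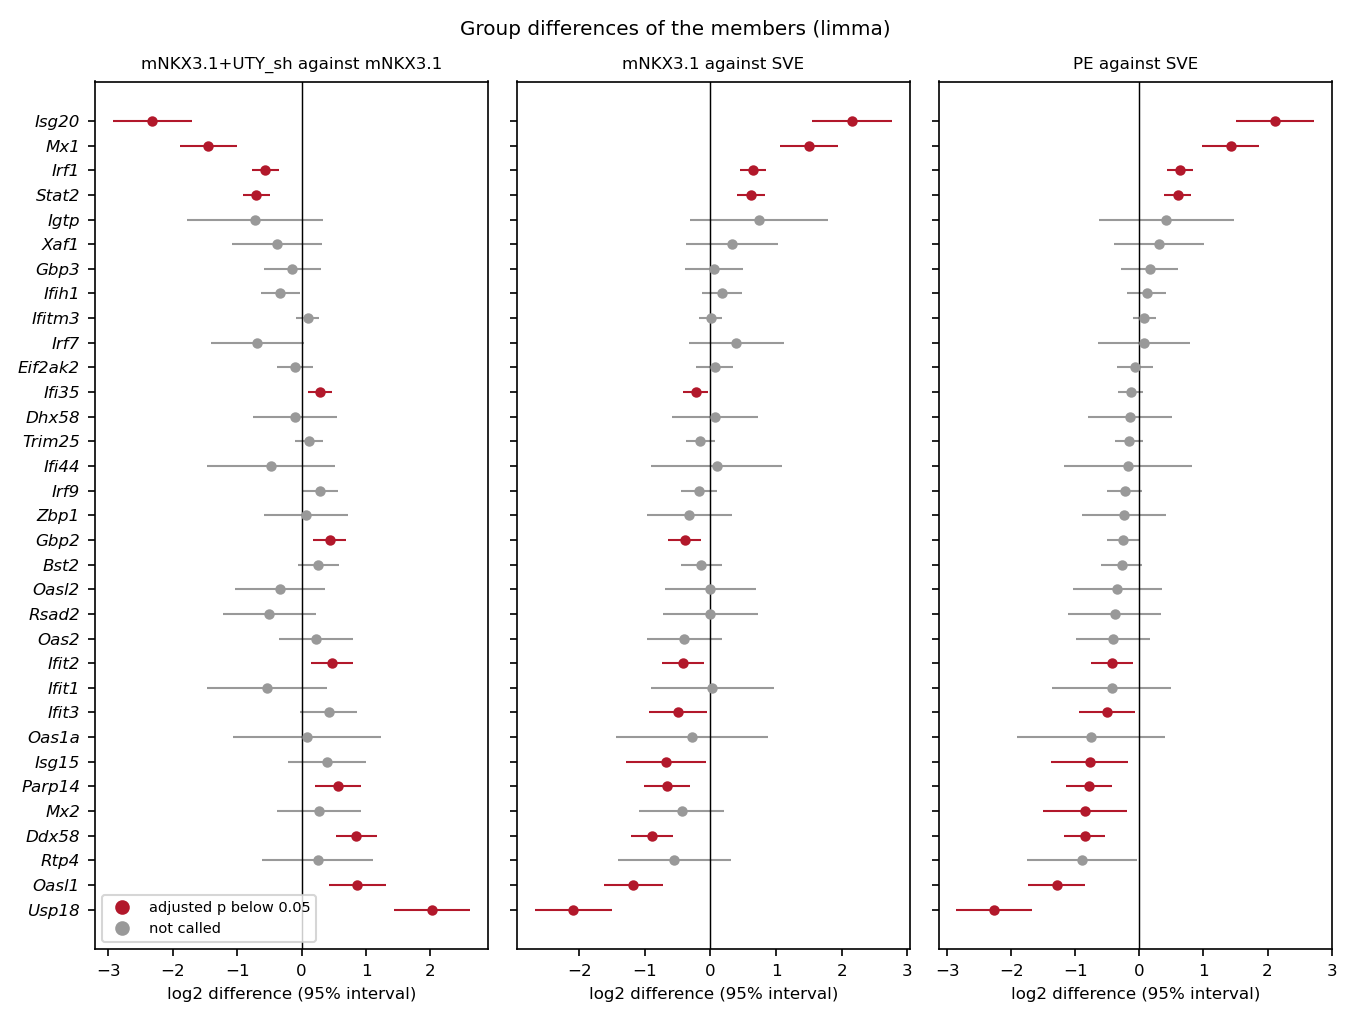
Log2 difference of each member (points) with its 95% interval (bars) from the fit to all 20 libraries, in 3 panels (mNKX3.1+UTY_sh against mNKX3.1 on the left, then mNKX3.1 and PE, each against SVE), with members called at an adjusted p below 0.05 in red. Isg20 and Usp18 lie at opposite ends in each panel, and the left panel shows the signs of the called members turned round.

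The libraries labelled mNKX3.1 were set against SVE to ask what the construct changes. Of 33 members, 4 were higher, 9 lower and 20 not called by limma, so 39.4% were called, against 62.3% of all genes (31.7% higher and 30.6% lower). The groups did not overlap for 10 members, against 54.9% of all genes. This comparison shares its SVE libraries with the one before, so the values are given side by side and not as independent support.

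Isg20 had 8.85, 8.96, 8.89 and 9.01 in mNKX3.1, all above the highest SVE library at 7.72, and differed by 2.16 (SE 0.29, limma adjusted p = 4.41e-06). Mx1 had 7.73, 7.63, 7.62 and 7.57 in mNKX3.1, all above the highest SVE library at 6.56, with a 95% interval of the difference from 1.05 to 1.94 (limma adjusted p = 7.22e-06). Stat2 rose by 0.61 (SE 0.10, limma adjusted p = 4.44e-05) and Irf1 by 0.65 (SE 0.10, limma adjusted p = 1.33e-05). These were the same 4 members that were higher in PE.

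On the lower side, Usp18 had 6.09, 6.02, 5.07 and 5.82 in mNKX3.1, all below the lowest SVE library at 7.42, a difference of -2.09 (SE 0.28, limma adjusted p = 3.96e-06). Oasl1 fell by 1.17 (SE 0.21, limma adjusted p = 0.000111), Ddx58 by 0.89 (SE 0.15, limma adjusted p = 5.85e-05) and Parp14 by 0.66 (SE 0.17, limma adjusted p = 0.00232). Ifit2, Ifit3 and Isg15 fell by 0.42, 0.49 and 0.67, with limma adjusted p = 0.0252, 0.0479 and 0.0492, and Ifit3 and Isg15 lost the call under 17 and 14 of 28 alternatives. Gbp2, a guanylate-binding protein that acts on pathogen-containing vacuoles, had 6.99, 7.33, 7.03 and 7.28 in mNKX3.1 and 7.47, 7.50, 7.68 and 7.54 in SVE. Gbp2 separated the groups here and fell by 0.39 (SE 0.12, limma adjusted p = 0.00919). Ifi35 fell by 0.22 (limma adjusted p = 0.0403), and Mx2, at -0.44, did not pass. The call was lost under 9 of 29 alternatives for Ifi35 and under 4 of 29 for Ifit2.

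Some members that were not called had nearly the same mean in mNKX3.1 as in SVE. Others did not, such as Igtp at 0.74 and Rtp4 at -0.55. Rsad2 averaged 5.74 ± 0.65 in mNKX3.1 and 5.75 ± 0.34 in SVE, and Oasl2 averaged 7.34 ± 0.57 in mNKX3.1 and 7.34 ± 0.27 in SVE (SD, n = 4 each). Their 95% intervals ran from -0.72 to 0.72 and from -0.70 to 0.70, so changes of that size in either direction remain possible. Replicate 3 was the lowest mNKX3.1 library for both, at 4.79 for Rsad2 and 6.50 for Oasl2.

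The hairpin alone was compared with SVE to ask what UTY_sh does without the construct. By limma 0 of 33 members were called, as were 0 of all 13456 genes (0% called), and 1 member had an unadjusted p below 0.05, as did 2.35% of genes. That member was Oasl1, at 6.02, 6.08, 6.33 and 6.59 in UTY_sh against 6.55, 6.94, 6.74 and 6.93 in SVE. UTY_sh replicate 4 overlapped SVE, and the difference was -0.54 (limma adjusted p = 0.999). Of the 33 members 26 had a negative difference, with a median of -0.10 against 0.003 over all genes, and 0 members separated the groups, against 1.23% of genes.

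The libraries labelled mNKX3.1+UTY_sh were likewise close to SVE and to UTY_sh. Against SVE limma called 0 of 33 members and 0 of all genes (0%), with 0 members and 4.14% of genes at an unadjusted p below 0.05. The smallest p belonged to Rsad2, at 5.58, 5.49, 4.69 and 5.23 in mNKX3.1+UTY_sh and 5.31, 5.65, 5.97 and 6.04 in SVE, which overlapped. Its 95% interval ran from -1.22 to 0.22. Against UTY_sh limma called 0 of 33 members and 0 of all genes (0%) as well, with 0 members and 1.61% of genes at an unadjusted p below 0.05. Ifitm3, the member with the least spread in mNKX3.1, had a 95% interval from -0.08 to 0.28 against SVE. As for UTY_sh alone, the absence of calls rests on taking the libraries of the groups as independent.

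Adding the hairpin to the construct was tested by setting the libraries with both against mNKX3.1. Of 33 members, 7 were higher, 4 lower and 22 not called by limma, so 33.3% were called, against 63.8% of all genes (31.4% higher and 32.4% lower). The 4 lower members were those that were higher in mNKX3.1 than in SVE, and the mNKX3.1 libraries are part of both comparisons. Isg20 had 6.45, 6.21, 6.51 and 7.27 in mNKX3.1+UTY_sh, against 8.85, 8.96, 8.89 and 9.01 in mNKX3.1, and fell by 2.32 (SE 0.29, limma adjusted p = 1.77e-06). Mx1 had 6.44, 5.80, 5.95 and 6.57 in mNKX3.1+UTY_sh, below the lowest mNKX3.1 library at 7.57, and fell by 1.45 (SE 0.21). Stat2 fell by 0.70 and Irf1 by 0.56, with no overlap of the groups.

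The higher members were led by Usp18, which had 8.09, 7.92, 7.54 and 7.56 in mNKX3.1+UTY_sh, against 6.09, 6.02, 5.07 and 5.82 in mNKX3.1. No library of mNKX3.1 reached the lowest of mNKX3.1+UTY_sh, and Usp18 rose by 2.03 (SE 0.28). Oasl1 rose by 0.87 (SE 0.21), Ddx58 by 0.85 (SE 0.15), Parp14 by 0.57 (SE 0.17), Ifit2 by 0.47, Gbp2 by 0.44 and Ifi35 by 0.29 in the same limma fit. The groups did not overlap for 11 members, against 61.9% of all genes. Against PE, the same libraries had 8 members higher and 4 lower by limma, 12 of 33, while 63.1% of all genes were called (30.9% higher and 32.2% lower).

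The test of the difference itself asked whether the hairpin's change with the construct differed from its change without it. In this interaction, which is mNKX3.1+UTY_sh minus mNKX3.1 less UTY_sh minus SVE, limma called 8 of 33 members, 4 higher and 4 lower, against 48.1% of all genes. They were Usp18 at 2.09 (SE 0.40, limma adjusted p = 0.000302), Oasl1 at 1.40, Ddx58 at 0.92 and Parp14 at 0.66, and in the other direction Isg20 at -2.24 (SE 0.41, limma adjusted p = 0.000232), Mx1 at -1.32, Irf1 at -0.62 and Stat2 at -0.60. Parp14 lost this call under 6 of 28 alternatives (highest limma adjusted p = 0.0701), and the other 7 kept theirs. Each of the 8 was also called in PE and in mNKX3.1 against SVE, comparisons that share libraries with this one.

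**Figure D3:**
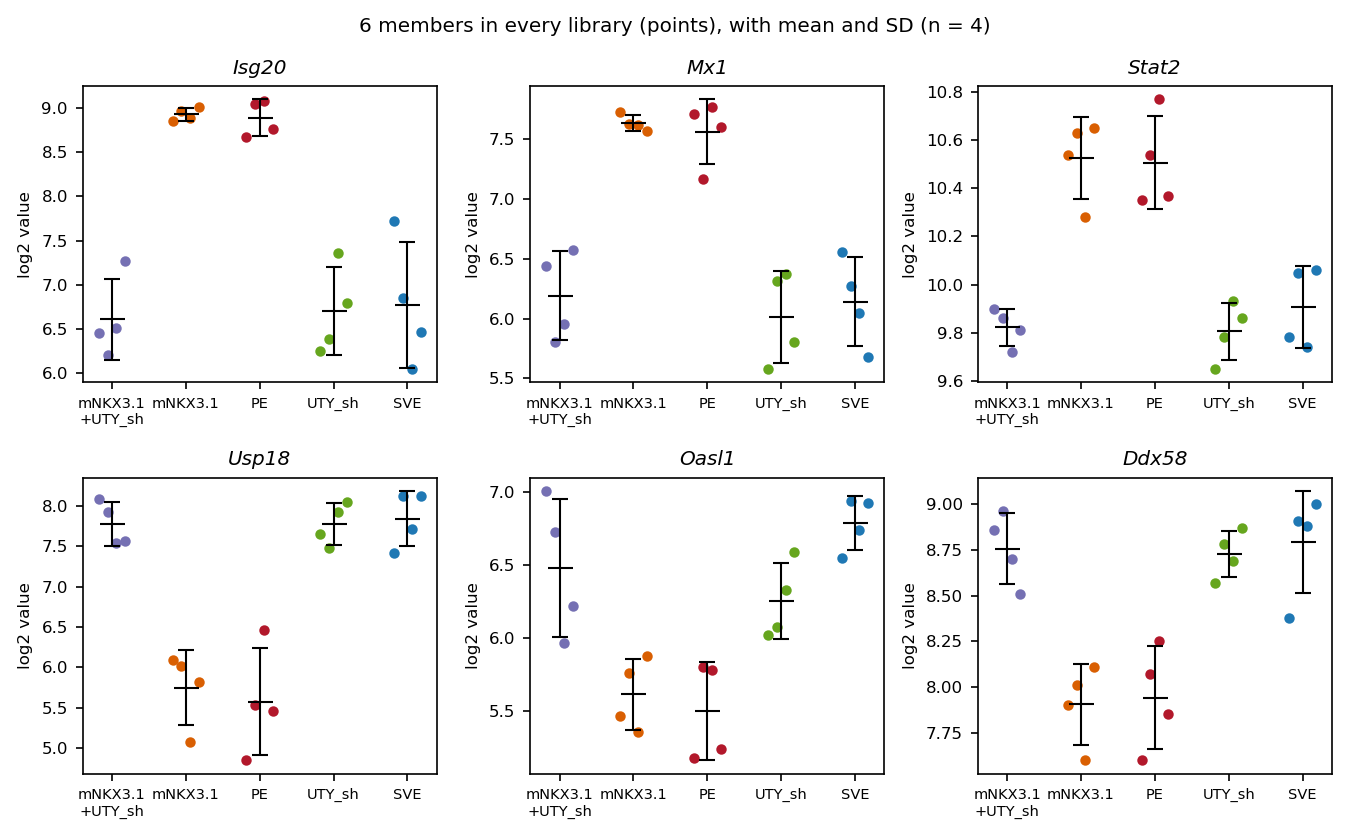
Log2 values (points, 1 per library) of 6 members in the 5 groups, with the mean and SD (bars, n = 4 libraries). Isg20, Mx1 and Stat2 lie higher and Usp18, Oasl1 and Ddx58 lower in mNKX3.1 and PE than in mNKX3.1+UTY_sh, UTY_sh and SVE.

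The mNKX3.1 libraries were also set against PE itself. By limma 0 of 33 members were called, and 0 of all genes (0%), with 0 members and 0.483% of genes at an unadjusted p below 0.05. The differences were positive for 27 of the 33, with a median of 0.07 against -0.01 over all genes. The intervals were wide for the members that varied most: for Oas1a, at 5.98, 5.88, 4.59 and 6.00 in mNKX3.1 and 4.37, 4.80, 6.70 and 4.68 in PE, the difference was 0.47 with a 95% interval from -0.68 to 1.63. For Isg20 the interval ran from -0.57 to 0.65, and for Usp18 from -0.41 to 0.76.

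The mNKX3.1 values lay inside the PE values for most members. For 26 of 33 members (78.8%) all 4 mNKX3.1 libraries fell within the PE range, which held for 48.8% of all genes, and for 0 members did all 4 PE libraries fall within the mNKX3.1 range, against 10.2% of all genes. The range was narrower in mNKX3.1 than in PE for 33 of 33 members, against 75.3% of genes. By comparison, the mNKX3.1+UTY_sh libraries all lay within the SVE range for 14 members (42.4%) and 39.3% of genes. Library by library, the estimated depths of the 2 groups followed the same order, at 20800000, 21860000, 15470000 and 18790000 reads in mNKX3.1 and 20510000, 20820000, 14930000 and 18030000 in PE. The counts of these 4 pairs differed beyond counting noise, with a chi-square per degree of freedom between 59.3 and 129.0. By the same measure mNKX3.1 replicate 3 was closer to PE replicate 4, at 5.86, and to PE replicate 1, at 14.3. The closest pair within PE had 24.68, and the closest within mNKX3.1 had 6.31. Across the hairpin groups, UTY_sh replicate 1 with mNKX3.1+UTY_sh replicate 2 had 5.76, against 10.67 or more within either group. SVE replicate 4 with mNKX3.1+UTY_sh replicate 2 had 8.32, and the closest pair within SVE had 13.6. The labels do not say whether the groups share animals or tissue. The absence of calls between mNKX3.1 and PE and the nesting therefore rest on taking the libraries as independent. So does the absence of calls among mNKX3.1+UTY_sh, UTY_sh and SVE. In each comparison without calls, fewer genes had an unadjusted limma p below 0.05 than chance alone gives for independent libraries. The reason was not tested.

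In every group the median range of the interferon-stimulated genes was above that over all genes tested. The median range between the highest and lowest library was 0.50 in mNKX3.1, against 0.24 over all genes tested, and 0.74 in PE, against 0.33. In mNKX3.1+UTY_sh it was 0.61 (0.26 over all genes), in UTY_sh 0.38 (0.30) and in SVE 0.70 (0.37). Genes with a mean between 5 and 8, the level of many members, had a median range of 0.37 in mNKX3.1+UTY_sh, 0.37 in mNKX3.1, 0.48 in PE, 0.41 in UTY_sh and 0.50 in SVE. Against that level the members' median range was lower in UTY_sh and higher in the other 4 groups.

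The libraries that were high and low were shared across the members. PE replicate 3 was the highest of the 4 PE libraries for 26 of 33 members, whereas it was the highest for 31.8% of all genes, and PE replicate 1 was the lowest for 24, against 19.9% of genes. The median deviation from the mean of the group's other libraries was 0.47 in PE replicate 3 and -0.46 in PE replicate 1, against -0.01 and 0.03 over all genes. Among mNKX3.1 libraries, replicate 3 was the lowest for 25 of 33 members, against 29.0% of genes. Replicates 2 and 4 were the highest for 16 and 12, against 16.3% and 18.1% of genes. Of the 26 members highest in PE replicate 3, 23 were lowest in mNKX3.1 replicate 3. Both libraries were the shallowest of their group, at 15470000 reads in mNKX3.1 and 14930000 in PE, and the part of depth in these values was not tested. In SVE, replicate 1 was the lowest for 26 (29.0% of genes) and replicate 4 the highest for 19 (27.4% of genes). In UTY_sh replicate 4 was the highest for 22 (21.7% of genes), and in mNKX3.1+UTY_sh replicate 1 was the highest for 23 (21.8% of genes).

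The widest members in PE were Igtp, Ifit1, Ifi44, Oas1a, Rtp4 and Rsad2, with ranges between 1.83 and 3.19, and the same 6 were the widest in mNKX3.1. Ifit1 had 7.12, 6.79, 5.31 and 6.60 in mNKX3.1 and 4.90, 5.78, 7.56 and 5.73 in PE. In mNKX3.1 only replicate 3 was below 6, and in PE only replicate 3 was above 6. Ifi44 did likewise, at 6.20, 6.63, 4.64 and 6.55 in mNKX3.1 and 4.76, 5.79, 7.26 and 5.12 in PE. Rsad2, which encodes an enzyme that makes a chain-terminating nucleotide, had 6.17, 6.18, 4.79 and 5.83 in mNKX3.1 and 4.60, 5.35, 6.43 and 5.06 in PE. Rtp4 had 6.59, 6.72, 5.28 and 6.24 in mNKX3.1 and 5.14, 5.88, 7.26 and 5.19 in PE. These 4 members and Oas1a thus had their mNKX3.1 minimum and their PE maximum in the libraries numbered 3, which are also the shallowest of their groups.

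Other members with high values in PE replicate 3 included Irf7, at 8.13, 8.14, 6.98 and 8.04 in mNKX3.1 and 6.82, 7.47, 8.64 and 7.09 in PE. Dhx58, Oasl2 and Eif2ak2 had 6.88, 8.12 and 9.41 in PE replicate 3, against at most 6.04, 6.86 and 8.86 in the other PE libraries. Usp18, lower in PE as a group, also reached its PE maximum of 6.46 there. The 4 members that were higher in PE as a group were narrower. Stat2, Irf1, Isg20 and Mx1 had ranges between 0.31 and 0.60 in PE and between 0.15 and 0.37 in mNKX3.1.

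**Figure D4:**
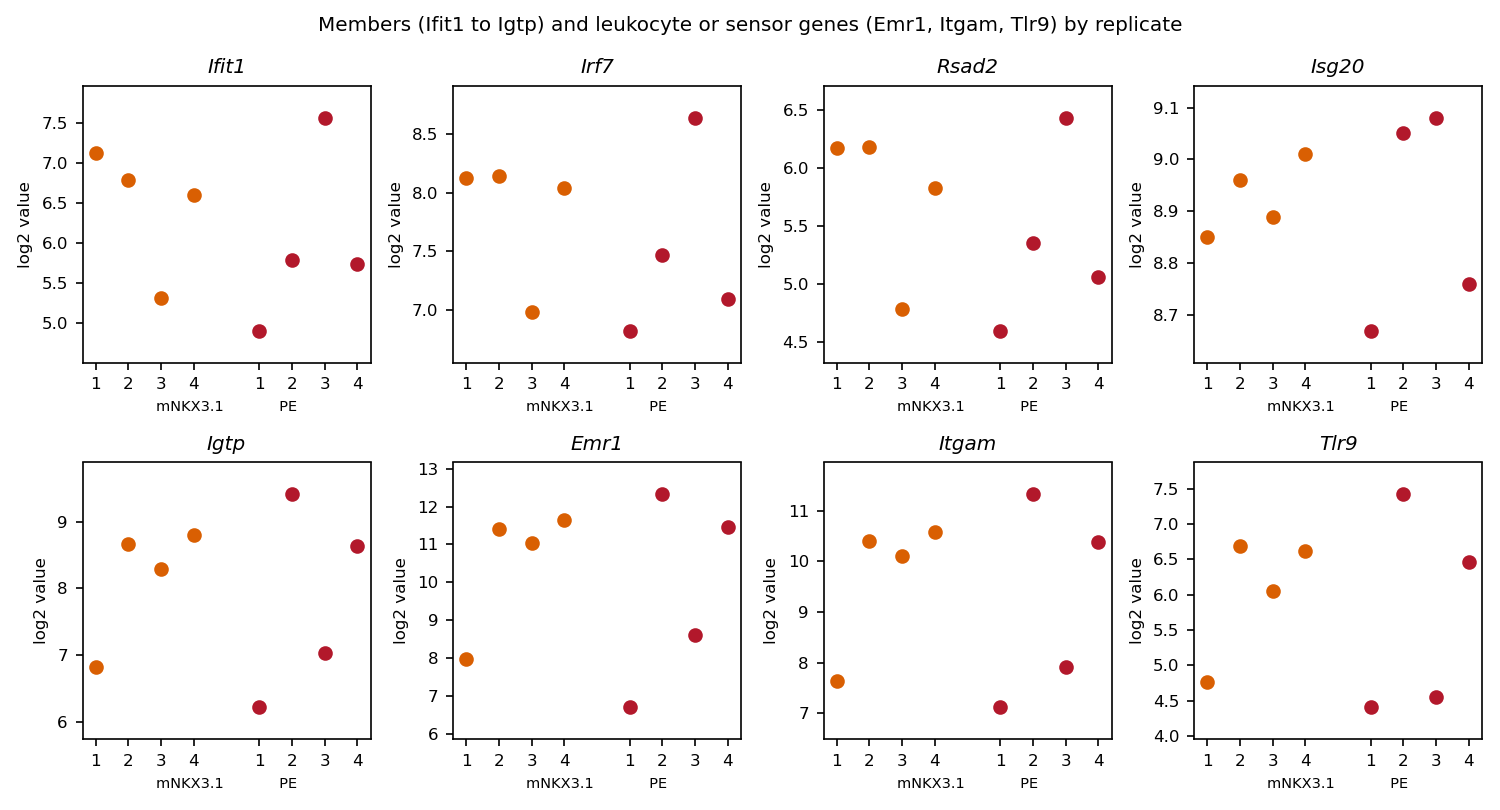
Log2 values by library in mNKX3.1 and PE for 5 members (Ifit1, Irf7, Rsad2, Isg20, Igtp) and for 3 leukocyte or sensor genes (Emr1, Itgam, Tlr9), with each panel on its own axis. Ifit1, Irf7 and Rsad2 peak in PE replicate 3 and dip in mNKX3.1 replicate 3, whereas Igtp, like Emr1, Itgam and Tlr9, has its highest PE value in replicate 2 and its lowest in replicate 1.

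The 7 members that did not peak in PE replicate 3 (Isg15, Oasl1, Gbp2, Gbp3, Zbp1, Ifitm3 and Igtp) all peaked in PE replicate 2. That library was the highest for 23.8% of all genes, and 7 of 33 members is near that share. Their lead over the next PE library ran from 0.02 for Oasl1 and 0.08 for Isg15 to 0.77 for Igtp, so some peaks are close to ties. Igtp, an immunity-related GTPase induced by interferon gamma in mouse, had 6.82, 8.66, 8.29 and 8.80 in mNKX3.1 and 6.22, 9.41, 7.03 and 8.63 in PE, while the SVE libraries lay between 7.08 and 7.65. Within these groups its lowest libraries were mNKX3.1 replicate 1 and PE replicates 1 and 3. Emr1, the macrophage marker F4/80, had 7.99, 11.42, 11.04 and 11.64 in mNKX3.1 and 6.71, 12.32, 8.62 and 11.46 in PE, the same order of libraries within each group. Igtp was not called against SVE in either group, at 0.74 for mNKX3.1 and 0.42 for PE. Without mNKX3.1 replicate 1, Igtp rose by 1.18 in mNKX3.1 (limma adjusted p = 0.0433).

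The whole leukocyte list was examined beside these values. Of its 20 genes in the table, 12 passed the filter and 2, the T cell genes Cd3e and Cd8a, averaged below 3. Its summed level was 11.75, 13.38, 13.15 and 13.55 in mNKX3.1 and 11.65, 14.14, 11.93 and 13.42 in PE on the log2 scale, and lay between 12.33 and 12.48 in mNKX3.1+UTY_sh, between 12.33 and 12.51 in UTY_sh and between 12.34 and 12.49 in SVE. Of the 12 genes of this list that passed, 2 were higher and 4 lower in PE than in SVE. In mNKX3.1, 3 were higher and 4 lower than in SVE. Of all genes, 62.1% and 62.3% were called in these comparisons. The sum is weighted to the most abundant genes and does not show these falls. PE replicate 3, where 26 members peaked, had a lower leukocyte level than PE replicates 2 and 4. PE replicate 2, where Igtp peaked, had the highest. The 5 plasmacytoid dendritic cell markers, cells known for making type I interferon, summed to between 10.45 and 10.63 in mNKX3.1 and between 10.34 and 10.62 in PE, against 10.67 to 10.91 in SVE. The sum includes Bst2, itself a member. Of these 5 markers, 1 was higher and 2 lower in PE than in SVE, where 62.1% of all genes were called. The endothelial list was lowest of the PE libraries in replicate 3, at 10.45, against 10.95 to 11.11 in the others. The part of these cell types in the members' values was not tested.

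The rest of the pathway was read from lists of its parts. All 18 interferon ligand genes in the table averaged below 3 in every group and 0 passed the filter, so none of them was detectable above the floor at this depth. Of 6 receptor genes, 4 were higher in PE than in SVE and 0 lower, while 62.1% of all genes were called there (31.8% higher and 30.4% lower). Ifngr2, a subunit of the interferon gamma receptor, averaged 9.67 ± 0.08 in PE and 8.24 ± 0.32 in SVE (SD, n = 4 each), and rose by 1.43 (SE 0.13, limma adjusted p = 2.11e-08). Ifngr1, its partner, rose by 1.16 and Il28ra, of the type III receptor, by 0.63. Ifnar1, of the type I receptor, differed by -0.04 and did not pass.

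Of 9 Jak and Stat genes tested, 3 were higher and 3 lower in PE than in SVE. Beside this list and those that follow, 62.1% of all genes were called. Stat5b fell by 1.62 (SE 0.09, limma adjusted p = 3.07e-11), and the kinases Jak2 and Jak1 fell by 0.95 and 1.03. Of 17 sensors and adaptors outside the members, 4 rose and 2 fell. Tmem173, which encodes STING, rose by 1.33 (SE 0.12), Irf8, a factor of myeloid cells, by 0.70, and Mavs, the adaptor of RIG-I, fell by 0.40. Of 10 negative regulators, 2 rose and 2 fell: among them the phosphatase gene Ptpn11 fell by 0.28, Pias1 fell by 0.16 and Ptpn6 rose by 0.87.

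Of 35 other interferon-stimulated genes tested, 5 rose and 12 fell in PE, against 62.1% of all genes called (31.8% higher and 30.4% lower). Lgals9, which encodes galectin-9, averaged 7.52 ± 0.03 in PE and 11.09 ± 0.64 in SVE and fell by 3.57 (SE 0.22, limma adjusted p = 2.18e-10). Samd9l fell by 1.49 and Tor3a rose by 1.47. Within PE, 18 of the 35 peaked in replicate 2 and 12 in replicate 3, against 23.8% and 31.8% of all genes. Lgals3bp, which peaked in PE replicate 3, had 9.10, 9.25, 8.18 and 9.15 in mNKX3.1 and 7.73, 8.39, 9.71 and 8.06 in PE.

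Antigen presentation genes, many of which interferon gamma induces, gave 5 rises and 7 falls of 18 in PE, against 62.1% of all genes called. B2m, the light chain of class I molecules, averaged 14.46 ± 0.18 in PE and 17.36 ± 0.25 in SVE and fell by 2.90 (SE 0.14, limma adjusted p = 6.51e-12). The class II genes H2-Aa and Cd74 fell by 0.94 and 0.93. Within PE, 18 of the 18 peaked in replicate 2, the library with the highest leukocyte level, and 0 in replicate 3. Of all genes, 23.8% and 31.8% peaked in these libraries.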

How the data were processed

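Poly-A RNA from 20 grafts, 4 libraries in each of 5 groups, was sequenced from TruSeq libraries, per the labels' protocols. Tools named in the submitters' processing notes are DESeq, Cufflinks 2.0.2, TopHat2 2.0.4 and bcl2fastq 1.8.4, and the build is mm9. The sources used here do not give the counter, the annotation, the order of steps or whether reads from rat were removed. The authors deposited log2 values, compressed at the low end, for 23284 genes, between 0.0193 and 22.42. The antilogs were whole multiples of 1 read between log2 values of 11 and 13 (100% of those tested, tolerance 0.1), which gave the depths. Whole reads could not be recovered at log2 values of 5 to 10, where most member values lie, so no count test was run, and folds of low genes are understated.

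Genes with at least 4 libraries at 5 or more were kept (13456). With no pseudocount added, 1 linear model with a mean per group covered all 20 libraries (limma 3.58.1, R 4.3.3, variance trend, Benjamini-Hochberg over all genes kept, adjusted p below 0.05); the fit was checked on simulated data. Tables and promoter searches used Python 3.11.15. Alternatives were other filters, scalings, a pseudocount of 32, the compared groups only, robust moderation, no trend, and leaving out each library. The members, the lists and the rule for named genes (in full, up to 4 members with the smallest p in each direction of a comparison, the 6 widest within PE and within mNKX3.1, and members that go against the rest; from each other list, up to 3 in PE against SVE) were chosen with earlier results of these data known. Members added to these in the text, and Lgals3bp and Emr1, were named after their values were seen. Some values are not reported here.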

Additional observations from a re-analysis of the deposited data

Results flagged for a closer look

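By Dixon's test, single libraries stood apart from the other 3 of their group in 13 of 200 groups of 4 values tested. Chance gives about 5%, so single flags may be chance. The groups were those of the members and of Emr1, Itgam, Tlr9, Pbsn, Lgals3bp and Ifi27l2a. Of these other genes, Lgals3bp and Emr1 were named after their values were seen. In mNKX3.1, replicate 3 was low for Irf7 (6.98), Oas1a (4.59), Oasl2 (6.50) and Lgals3bp (8.18), a secreted glycoprotein gene, and high for Pbsn (17.96). In PE, replicate 3 was high for Xaf1 (7.97), a promoter of cell death, and replicate 1 was low for Oas3 (2.21), which lies at the floor of the scale. In SVE, replicate 1 was low for Oas2 (5.15) and Xaf1 (5.81). Irf1 was high in UTY_sh replicate 2 (8.88). Of the macrophage genes, Emr1 was high in SVE replicate 3 (7.66) and low in mNKX3.1 replicate 1 (7.99), where Itgam was low too (7.63). Of these 13 values, 8 belong to members and the rest to Emr1, Itgam, Pbsn and Lgals3bp, so 13 is not a count for the members.

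The hairpin's change differed between SVE cells with and without the construct for 8 members by limma's interaction term. The change with the construct minus the change without it was -0.60 for Stat2, -0.62 for Irf1, -2.24 for Isg20 and -1.32 for Mx1, and 2.09 for Usp18, 1.40 for Oasl1, 0.92 for Ddx58 and 0.66 for Parp14. Uty itself lay between 9.09 and 9.29 in mNKX3.1+UTY_sh, between 10.07 and 10.31 in mNKX3.1, between 8.98 and 9.52 in UTY_sh and between 9.04 and 9.55 in SVE.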

How the results depend on the processing

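The count of members called in PE against SVE moved by over 1.5 times under 1 alternative, the fit without PE replicate 3, which called 19. That fit called 8350 of all genes, against 8362 with all libraries. Leaving out each library in turn gave 9 to 19 members in PE against SVE, 9 to 13 in mNKX3.1 against SVE, 11 to 14 in mNKX3.1+UTY_sh against mNKX3.1, 9 to 16 in mNKX3.1+UTY_sh against PE, 7 to 9 in the interaction, and 0 in each of the other 4 comparisons. The other alternatives gave 8 to 14 members in PE against SVE and 10 to 13 in mNKX3.1 against SVE. With a minimum of 7, 20 members were left, of which 17 were highest in PE replicate 3 and 14 lowest in mNKX3.1 replicate 3; fewer members enter there by construction. Stat2, Irf1, Isg20, Usp18, Mx1, Oasl1, Ddx58 and Parp14 kept their call and direction in PE and in mNKX3.1 against SVE under every alternative that tested them. Ifit2, Ifit3, Isg15 and Mx2 lost theirs under 4, 13, 5 and 5 alternatives in PE against SVE. In mNKX3.1 against SVE, Ifit2, Ifit3, Ifi35 and Isg15 lost theirs under 4, 17, 9 and 14, in mNKX3.1+UTY_sh against PE Irf9, Ifit2, Bst2 and Gbp2 under 7, 2, 4 and 10, and in the interaction Parp14 under 6; no called member changed sign. The fit without the 3 libraries rich in Pbsn was chosen after the data were seen. No paired analysis was possible because the labels give library identifiers and no replicate numbers shared between groups. Values near the floor limit Oas3 and the interferon genes.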
